A study of Mus musculus with 10 samples.

Results

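Whole mammary tumors from mice labelled as lacking Cxcr4 in myeloid cells were compared with tumors from control littermates. All mice carried the MMTV-PyMT transgene, which expresses the polyoma middle T oncogene from a promoter active in mammary epithelium, on a B6 background, and all carried floxed alleles of Cxcr4 (genotype Cxcr4fl/fl). The libraries labelled cKO also carried LysmCre, a Cre recombinase expressed from the LysM promoter of myeloid cells, and the controls did not. Tumors were taken at 15 weeks, with partners of matched size, and were snap frozen. The mice labelled cKO had the numbers 725 and 746 and the controls 706 and 720, with 1 mouse per library and 2 libraries per group, out of 10 libraries in the series. The comparison covers the 8997 protein-coding genes that averaged 5 CPM or more (read counts scaled to 1e+06 per library) over the 4 tumor libraries, out of 14114 protein-coding genes and 19720 genes of all kinds listed in the tumor table. These are called kept genes. Every set of 4 values below is given in the order of mice 725 and 746, labelled cKO, and then 706 and 720, controls.

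CXCR4 is the receptor of the chemokine CXCL12, which stromal cells secrete and which draws and retains leukocytes and some tumor cells. In PyMT tumors, macrophages and other myeloid cells lie among luminal-type cancer cells, fibroblasts and vessels, and a deletion driven by LysM-Cre is meant to reach the myeloid cells only. RNA from a whole tumor sums all of these cells, so fewer cells of a type and less RNA per cell cannot be told apart.

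Sequencing depth, estimated from the spacing of weakly read genes, came to 53.4 M reads (M is 1e+06) in cKO 725 and 34.2 to 35.4 M reads in the other 3 libraries. Protein-coding genes took 53.04% and 56.5% of the counts in the libraries labelled cKO and 51.3% and 49.7% in the controls, while small nuclear RNAs took 15.6% and 18.003% against 20.4% and 24.03%. A gene with 3 reads was at 0.0562 to 0.0878 CPM, a limit that covers counting error only. Of the kept genes, 69 (0.767%) lay under 3 reads in at least 1 library, most often in control 720, where 37 did.

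Cxcr4, the targeted gene (ENSMUSG00000045382, chromosome 1 from 128588199 to 128592293 in GRCm38, minus strand), did not fall with the label. It was read at 47.9 and 57.6 CPM in the libraries labelled cKO and 29.8 and 33.4 CPM in the controls. Both libraries labelled cKO lay above both controls, against the direction of the label. The log2 difference was 0.72 with a standard error (SE) of 0.29 and a 95% interval from 0.11 to 1.33, and it did not pass the test over all genes (limma adjusted p = 0.819). Since a whole tumor contains CXCR4-expressing cells outside the myeloid lineage, these values cannot test the deletion, and the groups are named by their labels throughout. Cxcl12, the ligand, was at 75.5, 66.8, 75.9 and 75.9 CPM, and Ackr3, the second receptor of CXCL12, at 24.8, 19.2, 19.3 and 24.1 CPM. The Ackr3 groups overlapped. For Cxcl12 only cKO 746 stood apart from the other libraries by more than 1 CPM. Lyz2, the gene whose promoter drives Cre here, was at 0.0562, 0, 0.117 and 2.63 CPM and was too low to be fitted. It was also weakly read in macrophages sorted from the same mice, at 4.55, 1.35, 3.10 and 0.134 CPM. The related gene Lyz1 was at 18.5, 5.06, 26.7 and 16.7 CPM in the tumors. Whether reads of Lyz2 were shared with Lyz1 was not tested, so low values of Lyz2 may not show low expression. The Lyz2 level in the tumors therefore cannot stand for the number of myeloid cells. The macrophage genes Adgre1 (28.5, 25.1, 23.5 and 17.4 CPM) and Csf1r (17.6, 17.2, 15.8 and 19.3 CPM) were read in all 4 tumor libraries.

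The tumors held both epithelial and stromal transcripts. Epcam, an epithelial adhesion gene, was at 364, 330.4, 462 and 341 CPM. Its groups overlapped, with control 706 the highest, and its log2 difference was -0.19 (SE 0.19, limma adjusted p = 0.891). Col3a1 (ENSMUSG00000026043, chromosome 1 from 45311538 to 45349706 in GRCm38, plus strand), which encodes the fibrillar type III collagen of fibroblasts, was at 153, 183, 316 and 343 CPM. The 2 controls lay close together and well above both libraries labelled cKO.

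No gene passed the test for a difference between the groups. The fit with limma covered 14630 genes of all biotypes, and the adjusted p was below 0.05 for 0 of them, with a lowest value of 0.492 and of 0.584 among kept genes. At an unadjusted p below 0.05 there were 856 (5.85%), with 571 (3.9%) on the higher side and 285 (1.95%) on the lower. Among kept genes, 476 (5.29%) were higher and 161 (1.79%) lower in the libraries labelled cKO by the same unadjusted p, 7.08% together. Both libraries labelled cKO lay above both controls for 2172 kept genes (24.1%) and below both for 1142 (12.7%). An exact two-sided permutation test of 2 against 2 libraries cannot go below p = 0.333 for a single gene. In a simulation of 2 against 2 libraries with 14630 genes, noise was drawn independently for each gene and library. Differences that many genes of a library share were therefore absent from it. There the test recovered 14.5% of 200 genes shifted 2-fold, with 1 false call. For a 4-fold shift it recovered 69.5% with 4 false calls, and for an 8-fold shift 87.5% with 12. Whether these rates hold for the tumor libraries was not tested.

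The excess of higher genes was not present after rescaling to protein-coding counts, and was smaller but still present under the other rescalings tried. The median difference of all kept genes was 0.11 log2 units as deposited, with 59.9% of kept genes positive and 40.1% negative. After rescaling to the total of protein-coding genes the median was -0.01, with 49.3% positive and 50.7% negative, and the shares of genes with the groups apart were 17.1% above and 19.0% below. Over all 14630 genes fitted, 56.6% were positive as deposited and 48.7% after rescaling to protein-coding genes. Scaling by trimmed means (TMM) left a median of 0.04 over kept genes, with 53.9% positive. Median-ratio scaling left 0.03, with 52.5% positive. Values below are as deposited, and a list is read against the median of all kept genes. The spread between libraries was measured by the standard deviation (SD) of log2 differences over kept genes, by which the libraries labelled cKO were closest to each other and the controls furthest apart. It was 0.635 between the libraries labelled cKO, 0.753 between the controls, and 0.675 to 0.739 between a library labelled cKO and a control.

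**Figure D1:**
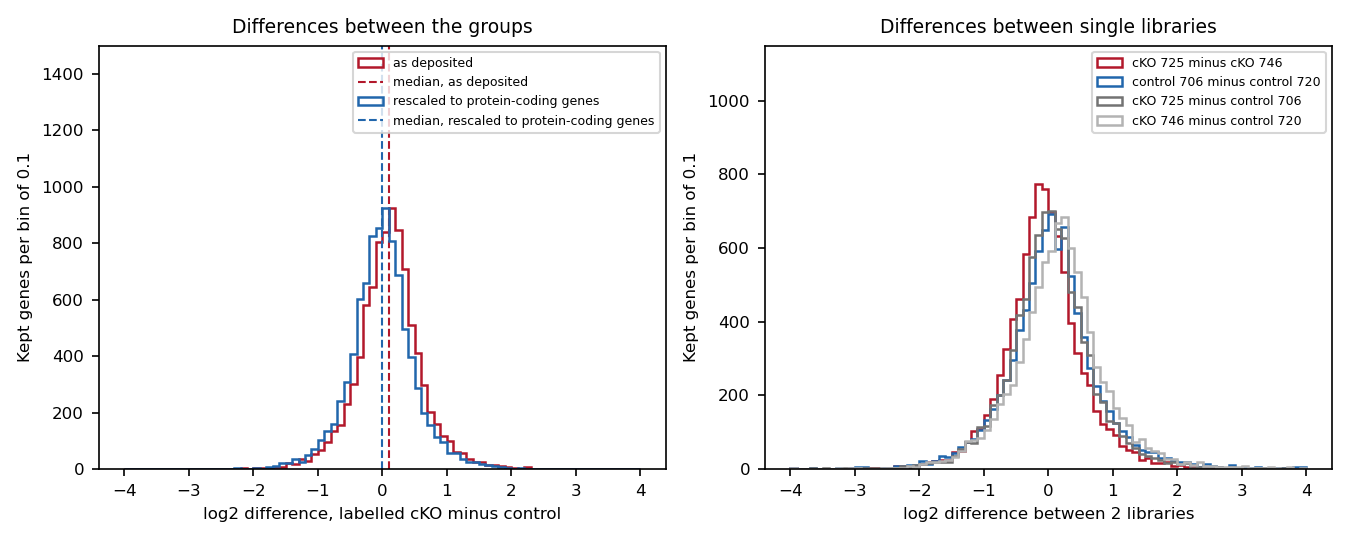
The left panel shows how many of the 8997 kept genes had each log2 difference between the groups (x axis, bins of 0.1), as deposited and rescaled to protein-coding genes, with dashed lines at the medians of 0.11 and -0.01. The right panel shows the log2 differences between single libraries: the spread between the 2 controls (SD 0.753) is wider than that between libraries of different groups (SD 0.675 to 0.739).

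Genes were picked for description by the lowest unadjusted p among kept genes with the groups apart, 12 in each direction, and none of them passed the adjusted threshold. Because p chose them, they are described without support from it. Among the 12 picked on the higher side were regulators of the cytoskeleton, of growth signaling and of RNA silencing. Ank, which encodes a membrane exporter that raises extracellular pyrophosphate, was at 78.2, 125, 38.0 and 46.3 CPM, a log2 difference of 1.22 (SE 0.27). Deptor, an inhibitory subunit of the mTOR complexes, was at 456, 663, 349.7 and 297 CPM, a difference of 0.77 (SE 0.20). Flna, the actin cross-linker filamin A, was at 392, 389, 224 and 259 CPM, a difference of 0.69 (SE 0.18). For these 3 genes the lower of the libraries labelled cKO was above the higher control by at least the gap between the controls.

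Ptx3, a secreted pattern-recognition protein of the pentraxin family, was at 41.2, 59.7, 17.6 and 19.98 CPM, a difference of 1.36 (SE 0.33). Ago1, an Argonaute protein that carries microRNAs, was at 126, 146, 72.9 and 72.1 CPM, a difference of 0.89 (SE 0.22), and Ralgapb, a subunit of the GTPase-activating complex for Ral proteins, was at 116, 103, 65.1 and 42.3 CPM. The controls of Ago1 differed by less than 1 CPM, whereas those of Ralgapb spread from 42.3 to 65.1 CPM. Elapor1 (178, 196, 108 and 102 CPM) and Tex261 (102, 104, 51.4 and 54.6 CPM) had differences of 0.83 and 0.95. Dnajc14, a J-domain co-chaperone, was at 26.4, 27.5, 7.20 and 7.57 CPM, a difference of 1.74 (SE 0.44). The remaining pair was nearly unread in 1 control. Sap18b, whose name marks it as a copy of Sap18, was at 21.0, 14.9, 3.37 and 0.178 CPM, and the zinc finger gene Zmym1 at 13.3, 10.03, 0.908 and 3.46e-06 CPM. Reads of Sap18b may be shared with Sap18, and the span of Ank overlaps Otulin, that of Ptx3 overlaps Veph1, and that of Dnajc14 overlaps Ormdl2, Sarnp and Tmem198b, so their values are uncertain.

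The 12 genes picked on the lower side included the collagen Col3a1, a milk protein and genes of iron uptake and protein folding. Col3a1 had a log2 difference of -0.98 (SE 0.19). Cebpd, a transcription factor induced in inflammation and in the involuting mammary gland, was at 17.9, 14.4, 46.2 and 49.2 CPM, a difference of -1.52 (SE 0.33). Csn1s1, the milk casein alpha-S1, was at 4.12, 11.8, 33.3 and 34.6 CPM, a difference of -2.11 (SE 0.48). The controls lay close to each other for all 3 genes, and the libraries labelled cKO were further apart in proportion. Tfrc, the transferrin receptor that takes up iron, was at 112, 127, 239.5 and 185 CPM, a difference of -0.81 (SE 0.21). Hspb8, a small heat shock protein, was at 10.9, 11.8, 36.5 and 31.4 CPM, and Vbp1, a subunit of the prefoldin chaperone, at 18.04, 15.7, 32.5 and 49.5 CPM. Their differences were -1.50 (SE 0.38) and -1.21 (SE 0.36).

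Cip2a, an inhibitor of the phosphatase PP2A, was at 19.5, 23.6, 42.9 and 48.9 CPM, and Micu2, a regulator of the mitochondrial calcium uniporter, at 9.50, 4.75, 25.0 and 21.3 CPM. Clca3a1 was at 4.29, 5.45, 17.6 and 21.6 CPM. In each of these both libraries labelled cKO were well below the lower control. The other 3 were weakly read. Noxo1, an organizer of NADPH oxidase, was at 1.72, 1.27, 12.3 and 11.5 CPM, the blood-cell gene Arhgap30 at 0.0749, 3.25, 12.2 and 13.4 CPM, and the membrane mucin Muc4 at 3.17, 0.452, 8.25 and 20.7 CPM. Cebpd overlaps Spidr, Noxo1 overlaps Tbl3 and Muc4 overlaps Muc20, so their values are uncertain.

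**Figure D2:**
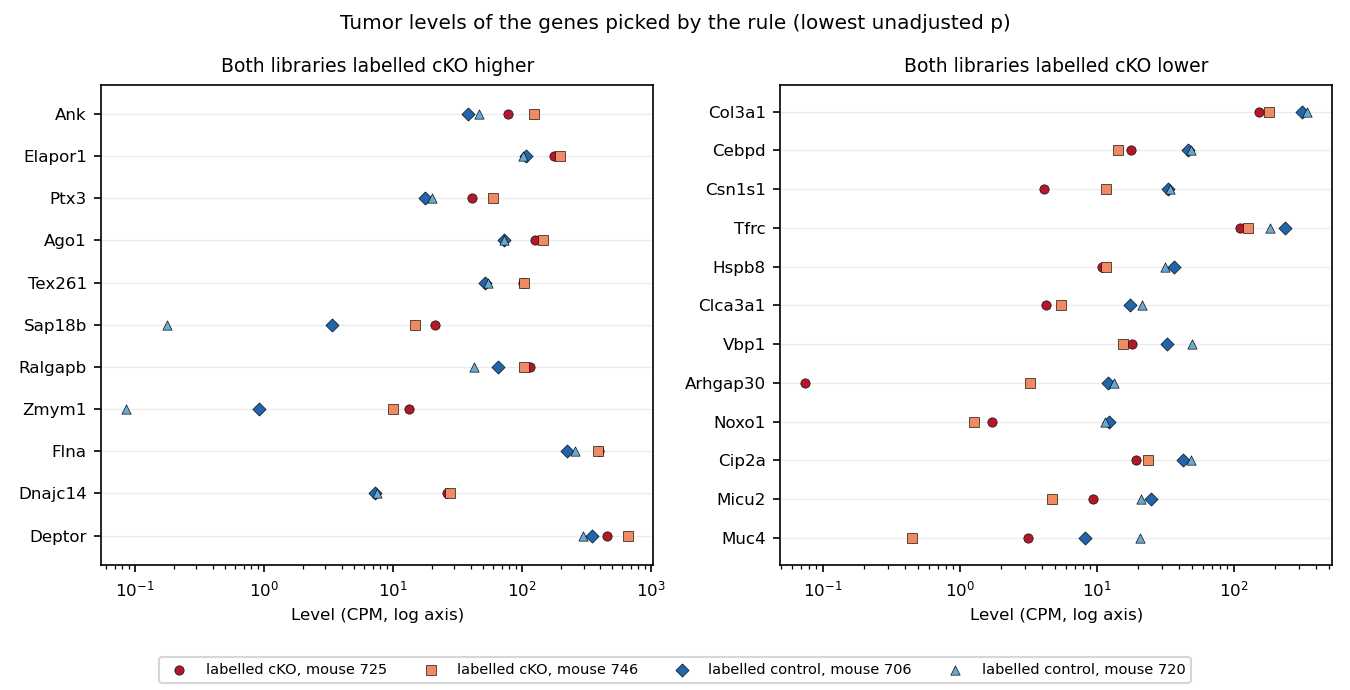
Levels in CPM (log axis) of genes picked by the lowest unadjusted p, 11 higher (left) and 12 lower (right) in both libraries labelled cKO, with 1 point per library; levels under 3 reads are drawn at 3 reads. Col3a1 at 153 and 183 against 316 and 343 CPM shows close controls, whereas Sap18b, Zmym1, Arhgap30 and Muc4 spread widely within a group.

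For the same 4 mice, sorted macrophages gave a second table, scaled separately, whose values are set beside these without a test. The epithelial gene Epcam was at 452 and 616 CPM in macrophages labelled cKO and 377 and 535 CPM in controls. The sorted libraries thus held epithelial transcripts too, and their values cannot be read as those of macrophages alone. Cxcr4 was at 41.9 and 165.2 CPM in macrophages labelled cKO and 14.4 and 135.4 CPM in controls, so it overlapped between the groups there and was not lower with the label. Tfrc was at 71.3 and 77.5 CPM in macrophages labelled cKO and 161 and 93.1 CPM in controls, with the groups apart on the same side as in the tumors. Col3a1 was at 23.6 and 38.1 against 11.0 and 21.9 CPM, the opposite side, and Cebpd at 107 and 71.3 against 57.2 and 82.1 CPM, with overlap.

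Matrix genes were found on both sides. Col3a1, Col1a2, Col6a1, Col6a2 and Lum, which build or bind collagen fibrils and microfibrils, lay lower in both libraries labelled cKO. Col4a1 and Col4a2, the chains of basement-membrane collagen IV, and Eln lay higher. Of 38 collagen and matrix genes, 35 were kept, and 14 differences were positive and 21 negative. The groups were apart above for 5 of 35 (14.3%, against 24.1% of all kept genes) and below for 10 of 35 (28.6%, against 12.7%). Rescaled to protein-coding genes, 4 were apart above and 11 below, where all kept genes had 17.1% and 19.0%. The median difference was -0.09, or -0.19 relative to all kept genes. Without control 720 the relative median was 0.01, and without each of the other libraries it was -0.28 to -0.15, so the median rests on control 720. No member passed the adjusted threshold (lowest limma adjusted p = 0.584, Col3a1).

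Col1a2, a chain of the fibrillar type I collagen, was at 67.9, 100.1, 118 and 167 CPM, a difference of -0.76 (SE 0.25). Col1a1, its partner chain, was at 59.7, 105, 94.7 and 123 CPM. The Col1a1 groups overlapped, with cKO 725 the lowest library for both chains. Col6a1, a chain of the microfibrillar collagen VI, was at 19.2, 10.7, 35.1 and 23.8 CPM, and Lum, the small proteoglycan lumican that binds collagen fibrils, at 10.5, 8.14, 22.6 and 22.1 CPM. Postn, the matricellular protein periostin, was at 134, 127, 154 and 233 CPM, with control 720 far above the other 3 libraries. On the other side, Col4a1 was at 108, 130.1, 84.8 and 64.0 CPM, a difference of 0.68 (SE 0.23), and Col4a2 at 61.8, 47.3, 29.3 and 21.8 CPM, a difference of 1.07 (SE 0.31). Eln, which encodes elastin, was at 17.2, 22.03, 3.13 and 9.89 CPM. In all 3 of these both libraries labelled cKO lay above both controls. The spans of Col4a1 and Col4a2 overlap each other, so their values are uncertain. The most abundant members, Sparc (831, 564, 624 and 716 CPM) and Bgn (591, 449, 467 and 579 CPM), overlapped between the groups.

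Fibroblast marker genes differed between the libraries labelled cKO. Of 16 kept fibroblast genes, 2 had the groups apart above (12.5%, against 24.1% of all kept genes) and 3 below (18.8%, against 12.7%). The median difference was -0.23, or -0.34 relative to all kept genes. The mean of the list relative to the controls was 0.02 in cKO 725 and -0.31 in cKO 746. Igf1, a growth factor made by stromal cells, was at 34.5, 30.3, 45.2 and 60.4 CPM. Fbln1, the matrix protein fibulin 1, was at 3.69, 2.82, 6.53 and 17.0 CPM. The 2 members apart above were Pdpn, at 19.5, 17.9, 15.1 and 7.77 CPM, and Fbln2, at 34.9, 38.8, 34.5 and 30.6 CPM. Pdgfra, a receptor that marks fibroblasts, overlapped at 9.96, 18.3, 9.57 and 15.1 CPM. Of 6 kept pericyte and smooth muscle genes, 5 differences were negative and 1 positive. The groups were apart above for 1 and below for 1 (16.7% each, against 24.1% and 12.7% of all kept genes). Their median difference was -0.32, or -0.43 relative to all kept genes. Mcam, an adhesion gene of pericytes and endothelium, was at 16.0, 12.4, 31.8 and 22.7 CPM. Notch3, a receptor found on mural cells, was at 108, 115, 55.2 and 66.5 CPM. In the sorted macrophage libraries of the same mice Notch3 was at 83.3, 134, 98.6 and 170 CPM. Its tumor level therefore cannot stand for mural cells alone. Notch3 was the only member with a positive difference. By the mean of this list, cKO 725 was at -0.21 and cKO 746 at -0.23, against 0.06 in control 706 and -0.06 in control 720. No member passed the adjusted threshold.

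Vessel genes lay on the higher side in part. Of 10 kept endothelial genes, 4 had the groups apart above and 1 below (24.1% and 12.7% of all kept genes). Kdr and Flt1, the receptors of VEGF, were at 10.1, 18.6, 3.89 and 8.77 CPM and at 20.4, 28.5, 8.99 and 19.9 CPM. Control 706 was the lowest library for both, and cKO 725 lay just above control 720. Pecam1, an endothelial junction gene, overlapped at 15.5, 7.57, 10.6 and 17.7 CPM, and the list as a whole was high in cKO 746 (0.50 above the controls) more than in cKO 725 (0.06).

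**Figure D3:**
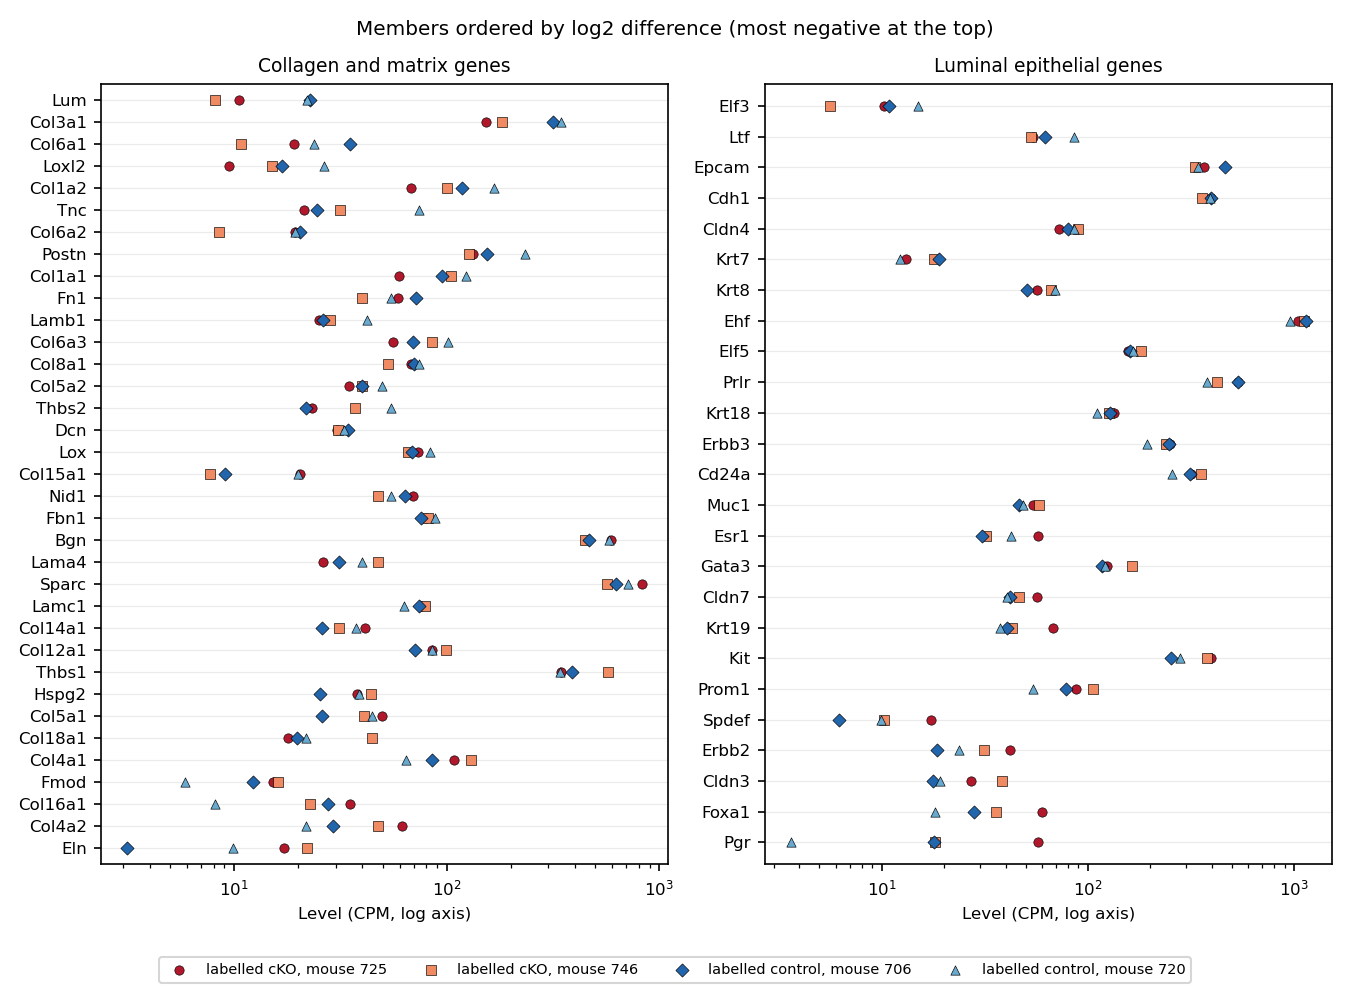
Levels in CPM (log axis) of the kept collagen and matrix genes (left) and luminal epithelial genes (right), with 1 point per library, ordered by log2 difference. Col3a1, Col1a2 and Lum lie among the lower members and Col4a2 and Eln at the higher end, while Pgr and Foxa1 end the luminal list.

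Type I interferon is sensed by most cells and induces antiviral genes through a transcription factor complex that binds a repeated sequence called the interferon-stimulated response element (ISRE). Of 43 listed type I interferon response genes, 36 were kept, 29 with a negative and 7 with a positive difference. The groups were apart below for 13 of 36 (36.1%, against 12.7% of all kept genes) and apart above for 0 of 36 (against 24.1%). With values rescaled to protein-coding genes, 15 were apart below and 0 above, where all kept genes had 19.0% and 17.1%. The median difference was -0.28, or -0.39 relative to all kept genes. The controls differed from each other: relative to their mean, control 706 was at -0.22 and control 720 at 0.22, and the libraries labelled cKO were at -0.28 and -0.27, close to control 706. With control 720 left out, 15 members were below and 10 above control 706 in both libraries labelled cKO (41.7% and 27.8%, against 29.3% and 39.5% of all kept genes), and the relative median was -0.26. With control 706 left out, 26 members were below control 720 (72.2%, against 26.6% of all kept genes) and the relative median was -0.64.

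Promoter sequences are shown for 3 members apart on the lower side (Ifit1, Rsad2 and Isg15) and for B2m and Gbp7 of the related lists described next, also apart on the lower side, because they carry ISRE matches. Each run is the 150 bases before the annotated start site in RefSeq (GRCm38.p6), 5' to 3' on the gene's strand, and capitals mark matches to GAAA, any 2 bases and GAAA, or on the other strand to TTTC, any 2 bases and TTTC, both of which were searched. The regions are chr19:34640739-34640888 (plus strand) for Ifit1, chr12:26456453-26456602 (minus) for Rsad2, chr4:156200819-156200968 (minus) for Isg15, chr2:122147537-122147686 (plus) for B2m and chr3:142530186-142530335 (plus) for Gbp7.
Ifit1: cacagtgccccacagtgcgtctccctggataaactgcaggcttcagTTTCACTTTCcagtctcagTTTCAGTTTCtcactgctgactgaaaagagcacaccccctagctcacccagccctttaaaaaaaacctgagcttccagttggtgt
Rsad2: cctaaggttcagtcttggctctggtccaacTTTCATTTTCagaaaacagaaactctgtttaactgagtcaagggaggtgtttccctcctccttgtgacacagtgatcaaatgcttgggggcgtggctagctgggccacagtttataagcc
Isg15: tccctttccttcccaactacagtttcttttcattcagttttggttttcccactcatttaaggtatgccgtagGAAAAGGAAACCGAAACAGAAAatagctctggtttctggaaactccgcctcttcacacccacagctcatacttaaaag
B2m: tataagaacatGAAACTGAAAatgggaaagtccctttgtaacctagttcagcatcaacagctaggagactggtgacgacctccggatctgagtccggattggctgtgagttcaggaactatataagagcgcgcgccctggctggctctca
Gbp7: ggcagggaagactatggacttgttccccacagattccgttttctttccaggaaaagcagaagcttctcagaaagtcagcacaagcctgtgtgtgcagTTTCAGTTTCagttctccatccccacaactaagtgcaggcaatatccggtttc
Ifit1 holds 2 separate matches and Isg15 a run of 3 matches that overlap each other. Over 300 bases around the start site, 3.99% of the 27025 genes with a window held a match. Of the kept interferon genes, 26 had a window and 13 of these (50.0%) held a match, and of those apart on the lower side 5 of 9 did. A match describes letters only, and binding was not measured.

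Rsad2, which encodes the antiviral enzyme viperin, was at 40.2, 52.5, 59.0 and 99.0 CPM, a difference of -0.72 (SE 0.29). Ifi44, another interferon-induced gene, was at 134, 133, 169 and 231 CPM, a difference of -0.56 (SE 0.21), and Usp18, which removes ISG15 from proteins and dampens the interferon receptor, at 13.8, 15.0, 20.2 and 36.9 CPM. In all 3 control 720 was the highest library and control 706 lay nearer to the libraries labelled cKO than to control 720. Ifit1, an antiviral protein that binds foreign RNA and the most abundant member of the list, was at 137, 142, 145 and 264 CPM, with only control 720 standing away. Ifitm3, which blocks entry of viruses, was at 33.4, 22.9, 42.4 and 54.3 CPM. Isg15, the ubiquitin-like modifier, was weakly read at 3.88, 6.13, 6.67 and 8.77 CPM. Trim25, a ubiquitin ligase of antiviral signaling and the next in abundance, overlapped at 144, 198, 160.3 and 178 CPM.

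Genes of antigen presentation by MHC class I, which display peptides to CD8 T cells and are induced by interferons, lay mostly lower. Of 17 kept members, 14 differences were negative and 3 positive, with the groups apart below for 7 (41.2%, against 12.7% of all kept genes) and above for 1 (5.88%, against 24.1%). These counts were 8 below and 1 above after rescaling to protein-coding genes, where all kept genes had 19.0% and 17.1%. The median difference was -0.32, or -0.42 relative to all kept genes. B2m, the invariant light chain, was at 413, 304, 476 and 552 CPM, a difference of -0.53 (SE 0.19). The heavy chains H2-K1 (232, 231, 269 and 273 CPM) and H2-D1 (178, 149, 209.9 and 218 CPM) had differences of -0.22 and -0.39, with the controls close to each other. The exception was Erap1, the peptidase that trims peptides for class I, at 92.5, 84.7, 59.9 and 61.6 CPM, whose span overlaps Cast. Members of the H2 family are near-identical in parts, so reads may be split among them. By the mean of the list, cKO 725 (-0.109) was level with control 720 (-0.115), and the list was lowest in cKO 746 (-0.46).

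Of 13 kept interferon gamma GTPases and targets, 4 were apart below (30.8%, against 12.7% of all kept genes) and 1 above (7.69%, against 24.1%). Iigp1, an immunity-related GTPase, was at 117, 113, 158 and 158 CPM and Gbp7, a guanylate-binding protein, at 19.8, 20.3, 28.6 and 44.3 CPM. The exception was Irf1, a transcription factor that interferon gamma induces, at 13.9, 22.1, 9.25 and 8.77 CPM. Of 6 kept genes of MHC class II, carried by antigen-presenting cells, 1 was apart above and 0 below, too few to set against the 24.1% and 12.7% of all kept genes. H2-Eb1 was at 32.5, 39.97, 25.8 and 11.8 CPM, while H2-Aa overlapped at 273, 185, 227 and 228 CPM.

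**Figure D4:**
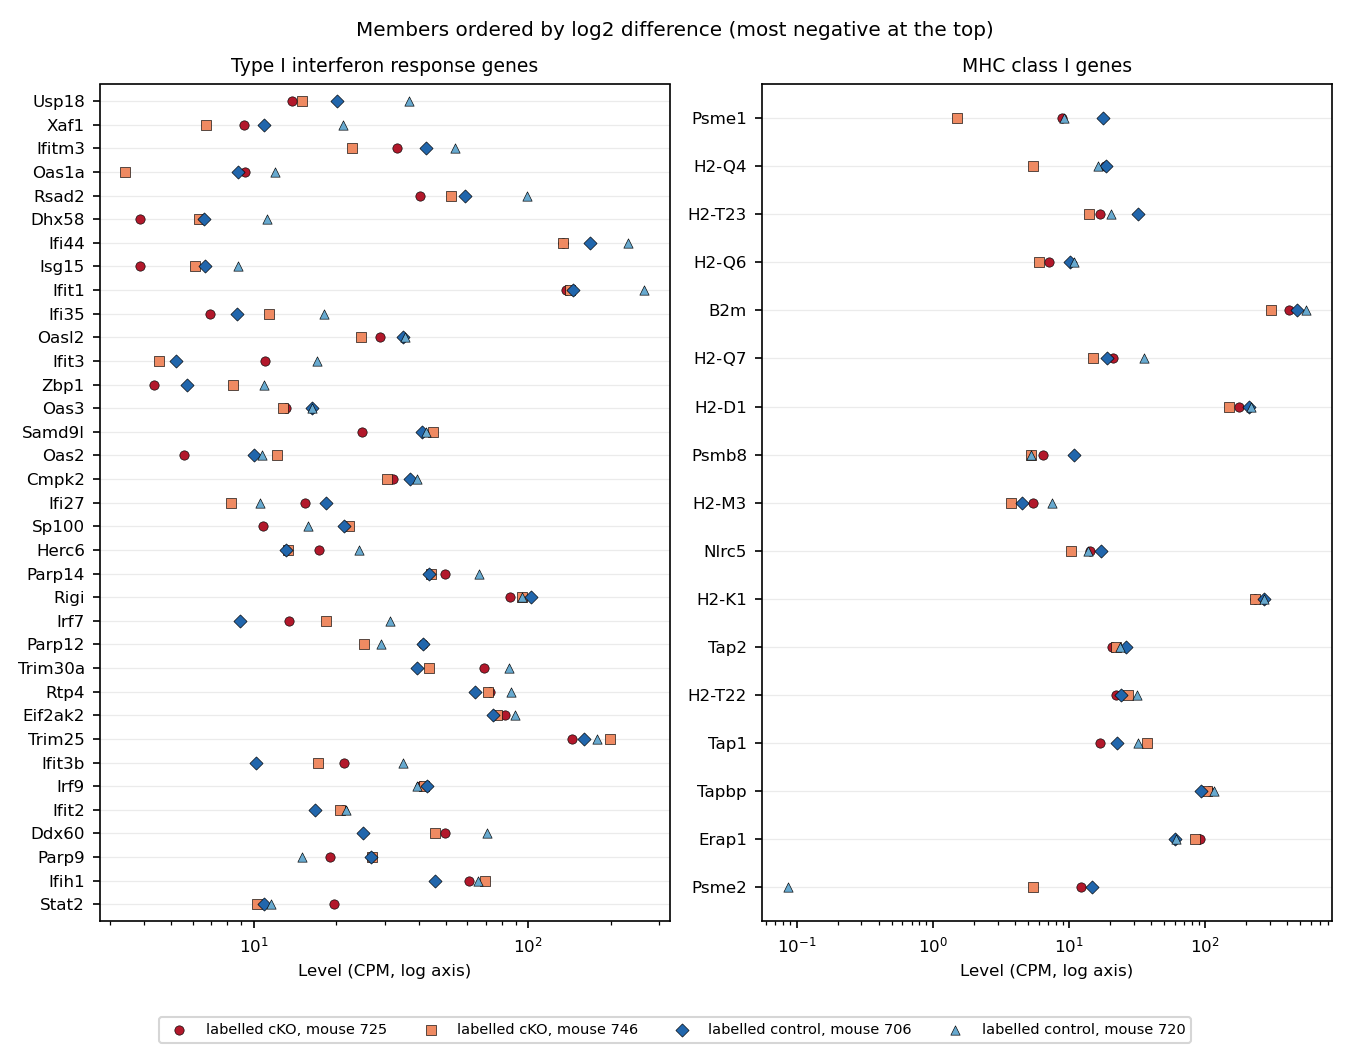
Levels in CPM (log axis) of 35 kept type I interferon response genes (left) and 17 MHC class I genes (right), with 1 point per library, ordered by log2 difference; levels under 3 reads are drawn at 3 reads. Control 720 lies to the right for Ifit1 (264 CPM), Usp18 (36.9 CPM) and Rsad2 (99.0 CPM), and control 706 lies closer to the libraries labelled cKO.

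Luminal epithelial genes included members higher in both libraries labelled cKO, such as Foxa1, Kit, Erbb2 and Cldn3. Of 25 kept members, 20 differences were positive and 5 negative. The groups were apart above for 12 (48.0%, against 24.1% of all kept genes) and below for 2 (8.0%, against 12.7%). The median was 0.24, or 0.13 relative to all kept genes, and the relative median was 0.01 without cKO 725. After rescaling to protein-coding genes, 14 differences were positive and 11 negative, and 6 members were apart above and 3 below, where all kept genes had 17.1% and 19.0%. Pgr, the progesterone receptor, was at 57.6, 18.1, 17.97 and 3.64 CPM, a difference of 1.83 (SE 0.61), but cKO 746 was level with control 706. Foxa1, a factor that opens chromatin for steroid receptors, was at 59.9, 36.0, 28.2 and 18.1 CPM, a difference of 1.004 (SE 0.35). Kit, a receptor tyrosine kinase of luminal progenitors, was at 393, 377, 254 and 280.1 CPM, a difference of 0.53 (SE 0.18), and the tight junction gene Cldn3 at 27.2, 38.3, 17.8 and 19.2 CPM. The most abundant members, Ehf (1048, 1119.6, 1144 and 955 CPM) and the prolactin receptor Prlr (533, 422, 534 and 377 CPM), overlapped, and so did Esr1, the estrogen receptor, at 57.6, 32.1, 30.6 and 42.2 CPM.

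Among basal and myoepithelial genes, 5 of 13 kept members were apart above (38.5%, against 24.1% of all kept genes) and 1 below (7.69%, against 12.7%). After rescaling to protein-coding genes 3 were apart above and 2 below. Trp63, a master factor of basal cells, was at 63.0, 60.3, 30.2 and 35.7 CPM, a difference of 0.89 (SE 0.28), and Snai2, a basal and mesenchymal factor, at 14.5, 15.2, 8.28 and 4.27 CPM. Both libraries labelled cKO were alike for these factors. Acta2, the contractile actin of myoepithelium and smooth muscle, overlapped at 180, 123, 228 and 128 CPM, and so did the basal keratin Krt5 at 10.4, 4.52, 7.03 and 6.19 CPM. The milk genes were mixed, with Csn1s1 apart below as given above and the dominant casein Csn3 overlapping at 4675, 6405, 4182 and 5783 CPM.

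The EGF family, ligands and ErbB receptors that drive growth of mammary epithelium, had 8 kept members, all with a positive difference. The groups were apart above for 4 of 8 (50.0%, against 24.1% of all kept genes) and below for 0 of 8 (against 12.7%). The median was 0.51, or 0.41 relative to all kept genes. Btc, the ligand betacellulin, was at 19.9, 19.6, 9.25 and 8.34 CPM, a difference of 1.08 (SE 0.46). Of the receptors, Erbb2 was at 41.8, 31.2, 18.7 and 23.7 CPM and Erbb4 at 58.5, 48.5, 26.7 and 32.6 CPM, with differences of 0.75 (SE 0.34) and 0.83 (SE 0.29). The span of Erbb2 overlaps Mien1. The abundant receptors Egfr (172, 217, 184 and 172 CPM) and Erbb3 (251, 239, 246 and 194 CPM) overlapped between the groups. After rescaling to protein-coding genes 7 of 8 differences were positive and 3 members were apart above. The relative median was 0.16 without control 720.

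Genes that p53 induces lay lower, with control 706 the highest library for 6 of 9. Of 9 kept targets, 8 differences were negative, 4 had the groups apart below (44.4%, against 12.7% of all kept genes) and 1 above (11.1%, against 24.1%). The median was -0.36, or -0.46 relative to all kept genes. Eda2r, a p53-induced death receptor of the tumor necrosis factor family, was at 3.86, 1.07, 20.1 and 8.60 CPM. Phlda3, an inhibitor of AKT, was at 8.20, 8.22, 30.9 and 10.1 CPM, and Ccng1, cyclin G1, at 255, 269.6, 464 and 219.6 CPM. In these 3 genes control 706 lay far above control 720, and for Ccng1 control 720 was the lowest of all. Mdm2, which degrades p53, was at 35.2, 29.4, 43.1 and 48.2 CPM, and Cdkn1a, the cell cycle inhibitor p21, at 10.9, 14.7, 20.3 and 15.5 CPM. Plk2, a stress kinase, was on the other side at 36.1, 45.9, 26.8 and 30.4 CPM.

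Chaperones split as well. Of 15 kept heat shock genes, 8 were apart below (53.3%, against 12.7% of all kept genes) and 2 above (13.3%, against 24.1%). The median was -0.19, or -0.29 relative to all kept genes, although the mean of the list was level between the groups. Hspd1, the mitochondrial chaperonin HSP60, was at 53.6, 38.2, 87.1 and 75.03 CPM, a difference of -0.82 (SE 0.26), and its span overlaps Hspe1. The abundant cytosolic chaperones Hsp90aa1 (169, 176, 235 and 214 CPM) and Hsp90ab1 (242, 258, 285 and 284 CPM) had differences of -0.38 and -0.19. Hspa1a, an inducible HSP70, was higher at 15.9, 16.0, 7.17 and 3.61 CPM. Both libraries labelled cKO were close to each other for each of these cytosolic chaperones.

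Inflammatory and monocyte genes had few kept members. Of 14 NF-kB and inflammatory genes, 5 were apart below (35.7%, against 12.7% of all kept genes) and 2 above (14.3%, against 24.1%). Tnfaip3, the feedback inhibitor A20, was at 6.46, 6.02, 12.9 and 19.98 CPM, and Nfkbia, the inhibitor of NF-kB, at 6.35, 11.4, 17.9 and 12.3 CPM, while Lcn2, the abundant secreted lipocalin, overlapped at 784, 987, 795 and 779.6 CPM. Of 6 kept monocyte genes, 3 were apart below (50.0%, against 12.7% of all kept genes) and 1 above (16.7%, against 24.1%). Ccr2, the receptor that draws monocytes from the blood, was at 33.5, 24.5, 55.9 and 44.4 CPM, a difference of -0.77 (SE 0.31), and the integrin subunit Itga4 at 11.9, 15.7, 26.4 and 21.2 CPM. Ace, the angiotensin-converting enzyme, was on the other side at 20.9, 35.8, 16.7 and 8.91 CPM.

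Macrophage genes did not stand apart from the rest. Of 17 kept macrophage genes, 4 were apart above (23.5%) and 2 below (11.8%), against 24.1% and 12.7% of all kept genes, and the median was 0.11, as for all kept genes. Lymphocyte, neutrophil and mast cell genes were mostly under the level at which genes were kept: 2 of 26 T and NK cell genes, 1 of 14 neutrophil genes and 0 of 6 mast cell genes. Skeletal muscle genes were highest in cKO 725, with Myh4, a fast myosin, at 31.3, 8.42, 7.90 and 4.13 CPM and Atp2a1, the muscle calcium pump, at 39.8, 8.56, 8.02 and 2.58 CPM. The 11 muscle genes in the table, of 13 on the list, summed to 116.7, 23.1, 35.0 and 13.9 CPM, and the fast myosin Myh1 was at 0 in all libraries but cKO 725. Adipocyte genes were also high in cKO 725 (mean of the list 0.78 above the controls) and low in cKO 746 (-0.54). The part of these tissues in the other differences was not tested.

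Of 22 kept glycolysis and hypoxia genes, 6 were apart above (27.3%) and 3 below (13.6%), near the 24.1% and 12.7% of all kept genes, with a list mean of -0.05 in cKO 725 and 0.43 in cKO 746. Aldoa, the glycolytic aldolase, was at 155, 231, 126 and 120.0 CPM, and Pkm, pyruvate kinase, at 162, 195, 120.4 and 126 CPM. Ldha, lactate dehydrogenase A, was lower at 99.5, 136, 164 and 151 CPM. Gapdh was at 22.3, 24.2, 11.1 and 11.3 CPM, and its span overlaps Iffo1 as that of Aldoa overlaps Tlcd3b. Of 19 kept genes of fatty acid and triglyceride synthesis, 13 differences were positive and 6 negative, with a median of 0.21. The groups were apart above for 6 (31.6%, against 24.1% of all kept genes) and below for 3 (15.8%, against 12.7%). Thrsp, a regulator of lipogenesis in the mammary gland, was lower at 12.6, 16.0, 36.1 and 28.1 CPM. So was Acly, which makes cytosolic acetyl-CoA, at 118, 95.9, 151 and 158 CPM. Agpat2, an enzyme of triglyceride assembly, was on the other side at 10.4, 13.2, 1.08 and 2.55 CPM, with a span that overlaps Egfl7, and Scd1, the desaturase, overlapped at 2638, 2456, 1861 and 2491 CPM. Of 32 kept cell cycle genes, 3 were apart above (9.38%, against 24.1% of all kept genes) and 6 below (18.8%, against 12.7%), with as many positive as negative differences (16 and 16). Mki67, the proliferation marker, overlapped at 86.2, 113, 76.5 and 96.7 CPM.

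**Figure D5:**
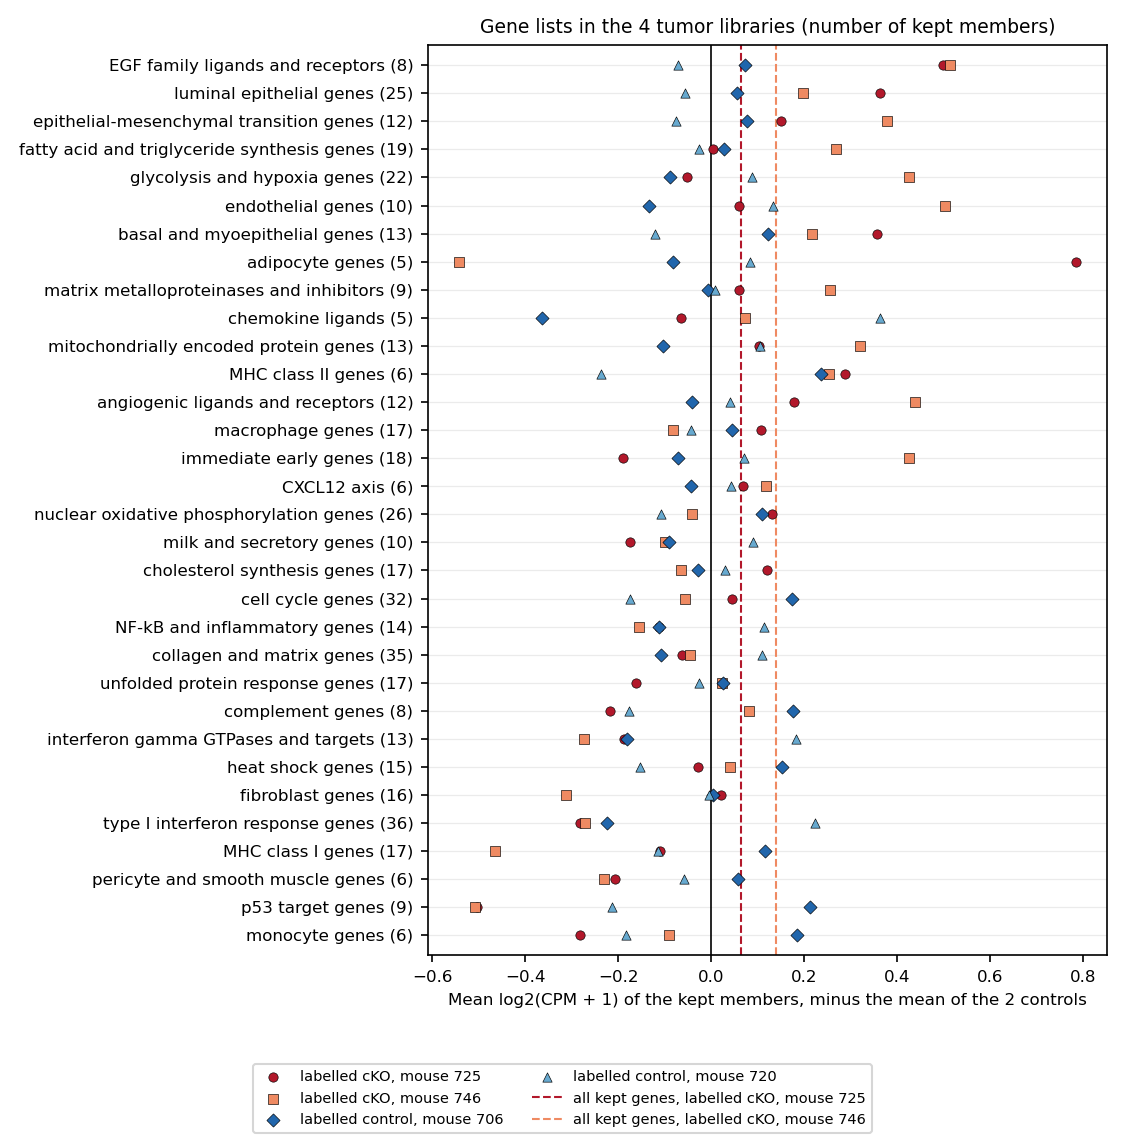
Each row is a gene list with at least 5 kept members (number in brackets), and each point the mean log2(CPM + 1) of its members in 1 library, minus the mean of the 2 controls; dashed lines give the same for all kept genes in the libraries labelled cKO. EGF family and p53 target genes separate the groups most clearly by these means, whereas for type I interferon response genes control 706 (-0.22) lies beside the libraries labelled cKO (-0.28 and -0.27).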

How the data were processed

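Values are deposited log2 values: 2 to the power of each, minus 1, summed to 1e+06 per library, so they are log2(CPM + 1), as read from the values. The genome build GRCm38 (mm10), the aligner STAR 2.7.8a and Partek are named per the submitters' processing notes. Ribosomal RNA was depleted from total RNA, per the labels' protocols. Only 2.79% of the deposited gene starts equal those of GENCODE vM21 (GRCm38), matched by identifier, so the deposited coordinates do not match the named build. They served only to find genes whose spans overlap. Printed positions are those of GENCODE vM21. Strand use in counting is not given in the sources used here. Low values were whole reads in 86.0% to 88.8% of cases (tolerance 0.1 read), which gave the depth, but no count test was run.

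The 2 libraries labelled cKO and 2 controls were fitted with limma 3.58.1 in R 4.3.3 (lmFit, eBayes with intensity trend) for every biotype above a mean of 1 CPM, with Benjamini-Hochberg adjustment over 14630 genes and a threshold of 0.05. Kept genes are protein-coding with a mean of 5 CPM or more. Fold changes on log2(CPM + 1) understate those of weak genes. The fit was also tested on simulated data. Groups are called apart where both libraries of one lie beyond both of the other.

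Named genes were Cxcr4, Cxcl12, Ackr3, Lyz2, Epcam and Col3a1, then 12 per direction by lowest unadjusted p among kept genes with groups apart, leaving out predicted models and mitochondrial genes. From each list, the 2 with the highest mean and up to 2 apart with the largest difference were added. Other members were chosen after their values were seen. Of the genes picked by p, 1 is not reported here, and 1 list member is left out of the text and the plots. The members and the 41 gene lists were chosen with earlier results of these data known. Each library is from a separate mouse. Alternatives were pseudocounts of 0.1 and 5, other filters, 3 rescalings, library weights, no intensity trend and each library left out. Counts of list members with a library left out were added after seeing the data.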

Additional observations from a re-analysis of the deposited data

How the results depend on the processing

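No paired analysis was possible because the tumor groups share no mouse numbers and the labels name no partners of the matched tumors. No gene passed the threshold under any of the 13 alternatives tried (limma, lowest adjusted p 0.0544 with a pseudocount of 5 to 0.933 without cKO 746). With 1 library left out, the lone library of an arm was assumed to vary like the others. Both libraries labelled cKO lay above both controls for 1357 protein-coding genes and below for 566 at a mean of at least 20 CPM, where fewer genes were counted. With a library left out, which makes separation easier, these counts were 3305 to 4050 above and 2161 to 2634 below. Relative list medians with a library left out ranged from -0.28 to 0.011 for collagen and matrix, from -0.67 to -0.34 for MHC class I, from -0.64 to -0.26 for type I interferon, from 0.16 to 0.41 for the EGF family and from -0.70 to -0.39 for p53 targets. The EGF family median was 0.32 with a pseudocount of 5. Rescaling to protein-coding genes left 19.0% of kept genes apart below and 17.1% above. By that scaling 5 of 9 p53 targets were apart below and 1 above, and 9 of 15 heat shock genes below and 2 above. For NF-kB and inflammatory genes it was 7 of 14 below and 1 above, and for cell cycle genes 8 of 32 below and 2 above. Ackr3 turned to -0.048 with TMM, -0.062 with median-ratio and -0.10 with protein-coding scaling, and ranged from -0.16 to 0.19 with a library left out. The differences of Epcam (-0.41 to 0.025), Egfr (-0.048 to 0.29) and Ccng1 (-0.82 to 0.25) changed sign with a library left out. The cause was not tested. Depth limits weakly read genes, and 2 libraries per group limit every test.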
